A study of Mus musculus with 6 samples.

Results

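The collagen chain genes were taken as every protein-coding row of the count table whose symbol has the form Col, number, a, number, from Col1a1 to Col28a1. The rule found 44 genes among the 54385 rows. They were measured in interscapular brown fat, the heat-producing depot between the shoulder blades, of C57BL/6N mice on a chow diet for 20 weeks and then at 5 °C for 24 hours. The 3 control samples were Adcy3-FL/FL with Adipoq-wt/wt, so that both Adcy3 alleles were floxed and no Cre was present. The 3 knockout samples were Adcy3-FL/FL with Adipoq-wt/cre. The labels do not say whether each sample is a separate mouse. All 6 samples had the same floxed alleles and the same cold exposure, and none came from mice kept warm. Adipoq-Cre acts in adipocytes, while fibroblasts, endothelial cells and mural cells of the depot are not its target. The Adcy3 protein, adenylyl cyclase 3, produces the messenger cyclic AMP at the cell membrane. The comparison asks how cold-exposed brown fat differs when Adcy3 is targeted in its adipocytes. Cre was present in the knockouts only, so its presence and the loss of Adcy3 cannot be told apart.

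Collagens are secreted proteins whose chains wind around each other as trimers through long stretches in which glycine recurs at regular steps. Fibrillar collagens (types I, II, III, V, XI, XXIV and XXVII) pack into the tensile fibrils of connective tissue and are made mainly by fibroblasts. Type IV collagens form the sheet-like network of basement membranes, which in fat surrounds each adipocyte and each capillary. Type VI forms beaded filaments between fibrils and basement membranes, the fibril-associated types (FACITs) sit on fibril surfaces, and the multiplexins, types XV and XVIII, lie in and beside basement membranes. The remaining classes are transmembrane collagens, short-chain network collagens and a few chains outside these groups.

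Total estimated counts per library ranged from 13956786 to 17538044. Levels are given in counts per 1000000 (CPM). The targeted gene Adcy3 checked the labels, with 154 ± 17.7 CPM in controls against 25.4 ± 4.36 CPM in knockouts (SD, n = 3 per group). On the principal component of log2 CPM with most variance (60.4%), knockout libraries 2 and 3 stood apart from the 3 controls and from knockout library 1, which lay nearest to the controls. On the next component (17.1%) knockout library 1 stood apart from the other 5. The summed CPM of 20 skeletal muscle markers ran from 15924 to 21926 in controls and was 10309, 759 and 141 in knockout libraries 1 to 3, so that these markers differed between the groups and within the knockouts. The labels number the samples of a group as replicates, and nothing says more of their origin, so p-values cover only the spread among these samples, which may be partly technical.

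Promoter windows of RefSeq (GRCm38.p6; 250 bases before to 50 after a gene's start) were present for 35 of the 44 genes; Col1a1, Col2a1, Col4a3, Col5a2, Col9a3, Col12a1, Col14a1, Col22a1 and Col26a1 had no entry. The 250 bases before the start are shown for 3 chains that stood lower in every knockout library: Col3a1 (chr1:45311288-45311537, plus strand), Col5a1 (chr2:27886175-27886424, plus strand) and Col6a3 (chr1:90843972-90844221, minus strand, written 5′ to 3′ along the gene). Capitals mark any match, on either strand, to 4 short motifs. The first searched was CCAAT, the classical promoter element of that name. Another was TATAAA, which positions transcription starts. The GC element bound by Sp1 was searched as GGGCGG. Finally, CAGACA holds the short core read by SMAD proteins.
Col3a1: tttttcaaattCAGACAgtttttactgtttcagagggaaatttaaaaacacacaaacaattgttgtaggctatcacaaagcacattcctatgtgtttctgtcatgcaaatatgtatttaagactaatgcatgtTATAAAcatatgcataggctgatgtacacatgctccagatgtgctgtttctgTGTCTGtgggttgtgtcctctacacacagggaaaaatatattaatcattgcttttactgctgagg
Col5a1: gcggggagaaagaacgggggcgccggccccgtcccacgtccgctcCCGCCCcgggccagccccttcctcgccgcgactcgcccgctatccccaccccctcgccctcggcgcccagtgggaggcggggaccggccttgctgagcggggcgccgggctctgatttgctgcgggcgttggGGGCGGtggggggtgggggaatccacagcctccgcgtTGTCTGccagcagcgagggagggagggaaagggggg
Col6a3: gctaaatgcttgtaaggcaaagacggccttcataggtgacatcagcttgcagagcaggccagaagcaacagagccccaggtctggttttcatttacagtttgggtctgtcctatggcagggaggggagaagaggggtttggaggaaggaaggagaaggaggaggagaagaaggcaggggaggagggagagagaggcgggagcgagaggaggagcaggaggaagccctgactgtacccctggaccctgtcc

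These upstream regions shared little lettering. Col3a1 held TATAAA and CAGACA in a sequence rich in A and T, Col5a1 held GGGCGG and CAGACA in a sequence rich in G and C, and Col6a3 held none of the 4. The 2 abundant type IV chains have a different arrangement. Col4a1 (chromosome 8, 11198423 to 11312826, minus strand) and Col4a2 (chromosome 8, 11312805 to 11449287, plus strand) run away from each other, and their annotated first exons overlap by 22 bases. That stretch, chr8:11312805-11312826 on the plus strand, is shown because both genes start at its edges; it holds GGGCGG, in capitals.
Col4a1/Col4a2 overlap: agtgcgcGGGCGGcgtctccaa

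Over all 38 collagen windows (some genes have more than 1), each taken whole, GGGCGG was present in 60.5%, against 35.7% of the 32851 windows in the RefSeq table. CCAAT was present in 34.2% against 37.4%, TATAAA in 13.2% against 13.6% and CAGACA in 23.7% against 21.0%. These are matches of letters on both strands, and no test was made of them.

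Of the 44 chains, 30 passed the low-count filter and 14 did not. None of the 30 passed the genome-wide test, made by edgeR (quasi-likelihood, Benjamini-Hochberg over 14767 genes, threshold 0.05). Of all genes tested, 0.0339% were called lower and 0.0271% higher. At an unadjusted p under 0.05, 14 chains were lower and 0 higher, against 7.6% and 2.87% of all genes. The median log2 fold change, knockout minus control, was -0.51 over the 30 chains and 0.01 over all genes tested, and 26 of the 30 were negative against 48.3% of all genes. In 14 chains every knockout library lay below every control library, against 10.8% of all genes tested, and in 0 chains did every knockout lie above (7.63% of all genes).

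**Figure D1:**
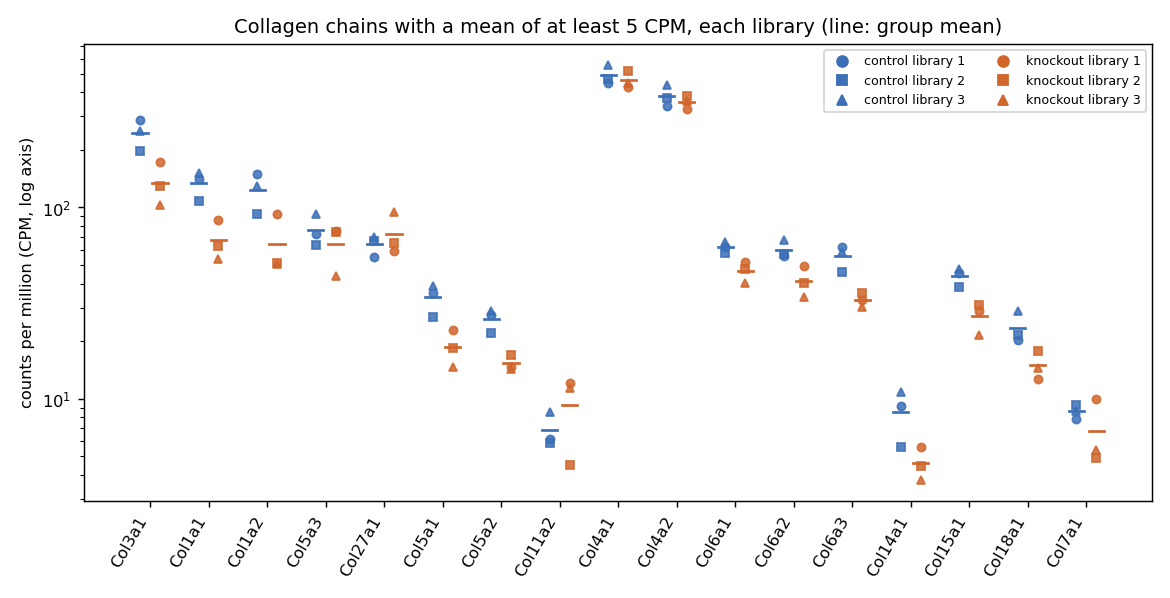
Counts per 1000000 (CPM, log axis) of the 17 collagen chains with a mean of at least 5 CPM, with 1 point per library, a marker shape per library number and a line at each group mean. The knockout points of Col1a1, Col3a1, Col5a1, Col5a2, Col6a1, Col6a2, Col6a3, Col15a1 and Col18a1 all lie below the control points, while for Col4a1 and Col4a2 knockout libraries 2 and 3 lie among the controls and knockout library 1 just below them.

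**Figure D2:**
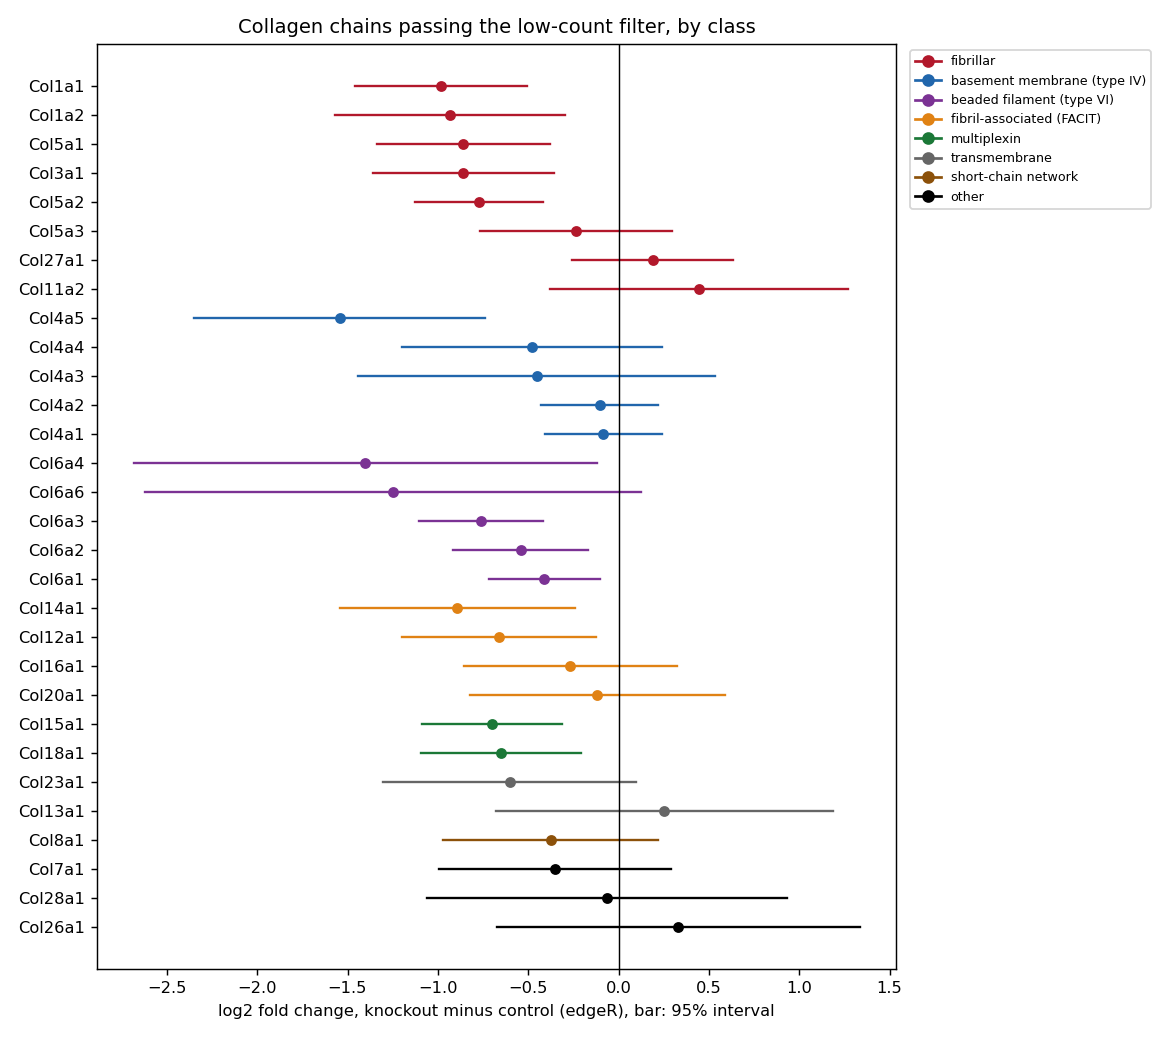
edgeR log2 fold changes (knockout minus control) of the 30 chains that passed the low-count filter, with 95% intervals not adjusted for the number of genes, coloured by collagen class. The fibrillar chains Col1a1, Col1a2, Col3a1, Col5a1 and Col5a2 lie between -0.98 and -0.77, Col4a1 and Col4a2 lie at -0.08 and -0.10, and the 4 positive chains are Col11a2, Col26a1, Col13a1 and Col27a1.

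Whether chains were called depended on 1 library, on the test and on the filter. Without knockout library 1 edgeR called 9 chains lower (5.35% of all genes), DESeq2's Wald test on all 6 libraries called 7 (1.87%), edgeR with no low-count filter called 10 (2.45%) and limma-voom called 0 (0.183%). Col1a1, Col1a2, Col3a1, Col5a1, Col5a2, Col6a3 and Col15a1 were the 7 of DESeq2, and all 7 were also among the 9 and among the 10. No chain was called higher in any of these fits (0.296%, 0.21%, 0.348% and 0.0406% of all genes, in the same order).

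The other fits called 0 chains in either direction. Shares of all genes called lower and higher were 0.0339% and 0.0271% with RLE factors, and 0.0371% and 0.0297% with a filter of 1 CPM in 3 libraries. With upper-quartile factors they were 0.0406% and 0.0271%, and with a replicate block 0.0135% and 0.0135%. They were 0.0677% and 0.0813% with the muscle score as covariate, 0% and 0.0203% with the muscle share, and 0.264% and 0.0474% at an adjusted p under 0.1. Leaving out control library 1, 2 or 3 gave 0.00665%, 0.0066% and 0.0132% lower and 0.0199%, 0.0198% and 0.0199% higher. Leaving out knockout library 2 or 3 gave 0.00656% and 0.0132% lower and 0.0197% and 0.0198% higher.

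**Figure D3:**
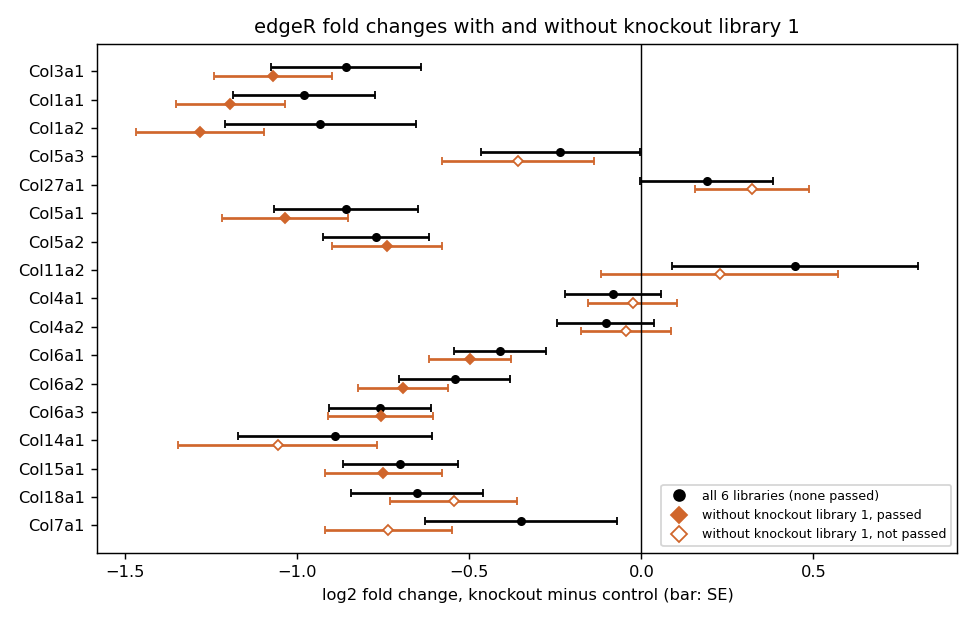
edgeR log2 fold changes (knockout minus control, bars are SE) of the 17 chains with a mean of at least 5 CPM, from all 6 libraries (black) and without knockout library 1 (orange, filled where the adjusted p was under 0.05). The 9 filled chains run from Col1a2 at -1.28 to Col6a1 at -0.50, and Col4a1 and Col4a2 stay near 0.

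Among the fibrillar chains, Col1a1, Col1a2, Col3a1, Col5a1 and Col5a2 had knockout means between 50.6% (Col1a1) and 58.5% (Col5a2) of the control mean. Col5a3, also a type V chain, was at 84.9%, and Col27a1 and Col11a2 had knockout means above the control mean. Of the 11 fibrillar genes 8 were tested, with a median log2 fold change of -0.82, 6 negative and 2 positive, and none passed over all genes. Col1a1 (chromosome 11, 94936224 to 94953042, plus strand), the main chain of type I fibrils, stood at 141, 108 and 152 CPM in controls (libraries 1 to 3, in this order throughout) and at 86.3, 62.5 and 54.0 CPM in knockouts. Groups did not overlap, and the highest knockout value was that of library 1. The edgeR log2 fold change was -0.98 ± 0.21 (SE; 95% interval -1.46 to -0.50; adjusted p = 0.156). Without knockout library 1 it was -1.19 (edgeR adjusted p = 0.00123).

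Its partner Col1a2 (chromosome 6, 4504814 to 4541544, plus strand), which completes the type I trimer, stood at 149, 92.2 and 129 CPM in controls and at 92.7, 51.0 and 50.5 CPM in knockouts. Control library 2 and knockout library 1 were nearly equal, so the groups overlapped. The log2 fold change was -0.93 ± 0.28 (SE, edgeR adjusted p = 0.296). Col3a1 (chromosome 1, 45311538 to 45349706, plus strand), the type III chain of distensible tissues, was the most abundant fibrillar chain. It stood at 286, 198 and 250 CPM in controls and at 172, 130 and 103 CPM in knockouts. No knockout reached the lowest control, and the log2 fold change was -0.86 ± 0.22 (SE, edgeR adjusted p = 0.226).

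Type V chains are built into type I fibrils and help to set their diameter. Col5a1 stood at 35.9, 26.9 and 38.9 CPM in controls and at 23.0, 18.4 and 14.7 CPM in knockouts. Col5a2, which lies next to Col3a1 on chromosome 1 with 24614 bases between them, stood at 27.6, 22.1 and 28.8 CPM in controls and at 14.6, 17.02 and 14.3 CPM in knockouts. Both had every knockout below every control. Their log2 fold changes were -0.86 ± 0.21 for Col5a1 (SE, edgeR adjusted p = 0.210) and -0.77 ± 0.15 for Col5a2 (SE, edgeR adjusted p = 0.148).

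Col5a3, the remaining type V chain, stood at 72.4, 64.0 and 92.2 CPM in controls and at 75.4, 74.8 and 43.9 CPM in knockouts, where libraries 1 and 2 lay among the controls and library 3 alone lay below them. Its log2 fold change was -0.24 with a 95% interval from -0.77 to 0.30 (edgeR adjusted p = 0.777). Col27a1, a fibrillar chain best known from cartilage, stood at 55.1, 66.8 and 70.5 CPM in controls and at 59.2, 65.6 and 94.4 CPM in knockouts. Knockout libraries 1 and 2 lay among the controls and library 3 lay above them, with a log2 fold change of 0.19 (95% interval -0.26 to 0.64; edgeR adjusted p = 0.790). Col11a2 stood at 6.18, 5.84 and 8.51 CPM in controls and at 12.05, 4.498 and 11.4 CPM in knockouts, a wide spread with a log2 fold change of 0.45 ± 0.36 (SE, edgeR adjusted p = 0.717).

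The 2 abundant basement membrane chains differed between the genotypes by less than their spread. Col4a1 stood at 448, 471 and 557 CPM in controls and at 427, 516 and 450 CPM in knockouts. Col4a2 stood at 339, 375 and 437 CPM in controls and at 328, 385 and 359 CPM in knockouts. The groups overlapped for both chains, although knockout library 1 lay below every control, and in both knockout library 2 was the highest of its group and control library 3 the highest of all. The log2 fold changes were -0.08 for Col4a1 (95% interval -0.41 to 0.24) and -0.10 for Col4a2 (95% interval -0.43 to 0.22), with edgeR adjusted p = 0.883 and 0.854. With the muscle markers' share of counts as a covariate Col4a1 was at -0.51 ± 0.30 and Col4a2 at -0.57 ± 0.29 (SE, edgeR adjusted p = 0.449 and 0.397). Both were more negative than Col1a1 (-0.32 ± 0.42), Col1a2 (0.29 ± 0.44) and Col3a1 (0.01 ± 0.40, SE) in that fit. With the markers' mean log2 CPM as covariate instead, Col4a1 (-0.16) and Col4a2 (-0.21) stayed less negative than Col1a1 (-0.59), Col1a2 (-0.40) and Col3a1 (-0.42). The order of these type IV and fibrillar chains thus depended on the covariate. Neither covariate overlapped between the genotypes, so these fits tell it apart from genotype only poorly. Counting was not stated to use strand, and how reads touching the 22 overlapping bases were assigned was not examined.

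The minor type IV chains, which form separate networks in specialised basement membranes such as that of the kidney glomerulus, were all below 3 CPM. Col4a5 (chromosome X) stood at 2.41, 1.604 and 2.21 CPM in controls and at 0.745, 0.847 and 0.534 CPM in knockouts. Its groups did not overlap, its log2 fold change of -1.54 ± 0.35 (SE) was the most negative of the 30, and its edgeR adjusted p was 0.185 on 102 control and 33 knockout counts; it was singled out after its values were seen. Col4a3 (-0.45) and Col4a4 (-0.48), which lie head to head with 71 bases between them, were also negative without passing, and Col4a3 shares 563 exonic bases with a noncoding gene on the other strand. Col4a6 had 5 and 1 counts in all and was not tested. The type IV median of -0.45 is therefore set by chains of about 1 to 2 CPM and not by the 2 chains that make up nearly all type IV message.

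Type VI chains, which assemble from Col6a1, Col6a2 and a longer partner such as Col6a3 into beaded filaments around adipocytes, had knockouts below controls in each of the 3 abundant genes. Of 6 genes 5 were tested, all 5 were negative (median -0.76) and none passed over all genes. Col6a1 stood at 61.9, 57.8 and 66.2 CPM in controls and at 52.0, 47.7 and 40.1 CPM in knockouts. Col6a2 stood at 55.8, 57.5 and 67.4 CPM in controls and at 49.6, 40.3 and 34.1 CPM in knockouts. Col6a3 stood at 62.3, 46.1 and 58.8 CPM in controls and at 32.8, 35.8 and 30.1 CPM in knockouts. In all 3 genes each knockout lay below each control. The distance from the lowest control to the highest knockout was small for Col6a1 and Col6a2 and wider for Col6a3. The log2 fold changes were -0.41 ± 0.13 for Col6a1, -0.54 ± 0.16 for Col6a2 and -0.76 ± 0.15 for Col6a3 (SE; edgeR adjusted p = 0.333, 0.298 and 0.139). Col6a4 (-1.40) and Col6a6 (-1.25), alternatives to Col6a3 with 60 and 102 counts over the controls, had standard errors of 0.56 and 0.60.

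Both multiplexins stood lower in every knockout library. Col15a1, which tethers basement membranes to nearby fibrils, stood at 45.7, 38.3 and 47.9 CPM in controls and at 28.9, 30.8 and 21.4 CPM in knockouts (log2 fold change -0.70 ± 0.17, SE; edgeR adjusted p = 0.205). Col18a1, whose C-terminal fragment is endostatin, stood at 20.4, 21.4 and 28.9 CPM in controls and at 12.7, 17.8 and 14.4 CPM in knockouts (log2 fold change -0.65 ± 0.19, SE; edgeR adjusted p = 0.291). The groups did not overlap for either gene.

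The fibril-associated chains were scarce. Col14a1, the most abundant of them, stood at 9.13, 5.61 and 10.9 CPM in controls and at 5.62, 4.43 and 3.74 CPM in knockouts, with control library 2 and knockout library 1 nearly equal (log2 fold change -0.89 ± 0.28, SE; edgeR adjusted p = 0.321). Col12a1 was at -0.66, Col16a1 at -0.27 and Col20a1 at -0.12 on the log2 scale, so all 4 tested members of the 9 were negative and none passed. Col20a1 shares 79 exonic bases with another gene model on its strand. Col7a1, the chain of anchoring fibrils, stood at 7.83, 9.28 and 8.65 CPM in controls and at 9.95, 4.89 and 5.40 CPM in knockouts, where library 1 was above all controls and the other 2 below them (log2 fold change -0.35 ± 0.28, SE; edgeR adjusted p = 0.715). Of the rest, Col8a1, a short-chain collagen of vessel walls, was at -0.38, the transmembrane chains Col23a1 and Col13a1 were at -0.60 and 0.25, Col28a1 was at -0.07 and Col26a1 at 0.33, and none passed.

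The 14 untested chains had between 0 and 57 counts over the 6 libraries. They were Col2a1, Col4a6, Col6a5, Col8a2, Col9a1, Col9a2, Col9a3, Col10a1, Col11a1, Col17a1, Col19a1, Col22a1, Col24a1 and Col25a1. Among them are the cartilage chains of types II, IX and X and the epidermal chain Col17a1, which had 0 counts in all libraries. A library's floor of 3 counts corresponds to 0.172 to 0.203 CPM. The highest of the 14 was Col22a1, a chain of the junction between muscle and tendon, with 46 control and 11 knockout counts. It stood at 1.18, 0.344 and 1.34 CPM in controls and at 0.203, 0.130 and 0.356 CPM in knockouts, so that control library 2 lay among the knockouts.

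Levels of different chains were compared per length, as CPM per kilobase of the transcript with the longest coding sequence. In controls Col4a1 (74.4 ± 8.71) and Col4a2 (59.5 ± 7.74) led, followed by Col3a1 (43.9 ± 7.95), Col1a2 (23.1 ± 5.39), Col1a1 (22.5 ± 3.86), Col6a2 (15.2 ± 1.596), Col6a1 (15.1 ± 1.03) and Col5a3 (12.5 ± 2.36; CPM per kilobase, SD, n = 3). The neighbours Col1a2 and Col1a1, and Col6a2 and Col6a1, differed by less than their spread. In knockouts Col4a1 and Col4a2 still led, at 70.2 ± 7.03 and 55.4 ± 4.41, and Col3a1 stood at 24.2 ± 6.27 CPM per kilobase (SD, n = 3).

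Summed over a class, fibrillar message stood at 120 ± 18.9 CPM per kilobase in controls and 74.2 ± 14.3 in knockouts, type VI at 36.3 ± 3.07 and 25.3 ± 3.62, and the multiplexins at 12.7 ± 1.61 and 7.91 ± 1.21 (SD, n = 3 per group). Type IV stood at 135 ± 16.5 and 126 ± 11.3 CPM per kilobase. The share of type IV in all collagen message per length was 39.3%, 46.7% and 44.4% for controls 1 to 3 and 46.7%, 55.8% and 56.4% for knockouts 1 to 3. Control library 2 and knockout library 1 met, and the other 2 knockouts lay above all controls. The fibrillar share was 38.6% ± 3.90 in controls against 31.0% ± 4.62 in knockouts (SD, n = 3 per group), with knockout library 1 among the controls. Sums over chosen members are descriptions and were not tested. In these bulk samples, fewer cells of a type and less RNA per cell cannot be told apart.

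**Figure D4:**
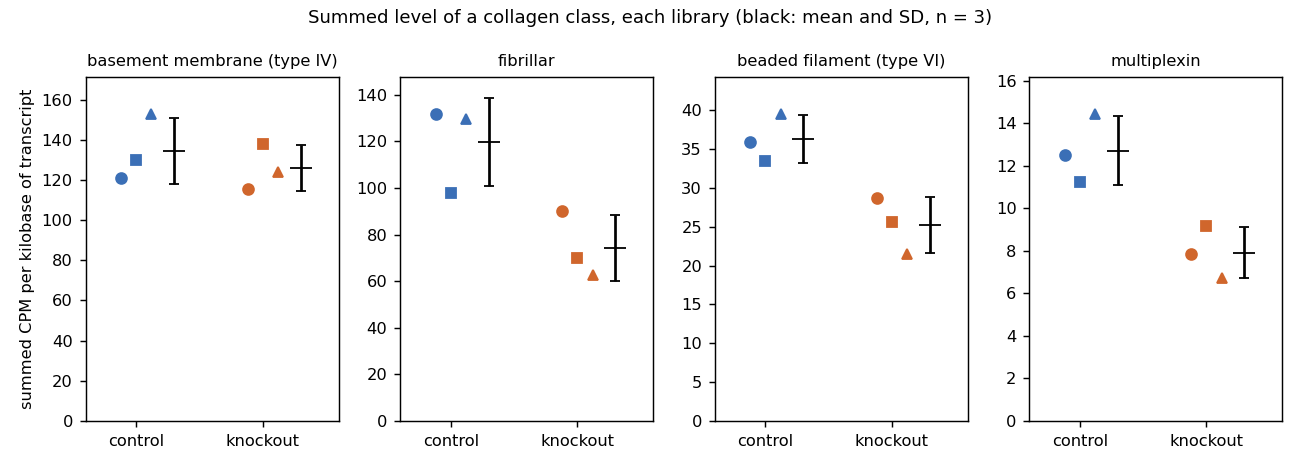
Summed CPM per kilobase of transcript for 4 collagen classes, with 1 point per library and the group mean ± SD in black (n = 3 each). Type IV overlaps between genotypes (135 ± 16.5 against 126 ± 11.3), while every knockout library lies below every control for the fibrillar, type VI and multiplexin sums.

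Ratios within a library do not depend on how libraries are scaled, and 7 were compared with an exact two-sided permutation test, which with 3 against 3 cannot go below 0.1. Col4a1 over Col1a1, per length, was 2.85, 3.91 and 3.29 in controls and 4.43, 7.40 and 7.47 in knockouts. Every knockout lay above every control (difference in log2 of 0.91; exact permutation p = 0.1, adjusted over the 7 ratios p = 0.35). Col6a3 over Col6a1 was 0.364 ± 0.0427 in controls against 0.288 ± 0.0278 in knockouts (SD, n = 3 per group), with every knockout below every control (exact permutation p = 0.1, adjusted p = 0.35). The ratios of type I and type IV partner chains differed by less than their spread. Col1a2 over Col1a1 was 1.02 ± 0.131 in controls against 1.04 ± 0.144 in knockouts (exact permutation p = 0.9), and Col4a2 over Col4a1 was 0.799 ± 0.0210 and 0.790 ± 0.0273 (SD, n = 3 per group; exact permutation p = 0.8). Col3a1 over Col1a1 (exact permutation p = 0.3), Col5a2 over Col5a1 (exact permutation p = 0.7) and Col6a2 over Col6a1 (exact permutation p = 0.2) overlapped between the groups. The level of such a ratio depends on the lengths used: over the union of all exons, a choice added after seeing the data, Col1a2 over Col1a1 was 0.487 in controls and 0.497 in knockouts.

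All 10 fibroblast and progenitor markers were tested and all 10 were negative (median log2 fold change -0.71), with none passing over all genes. At an unadjusted p under 0.05, 7 were lower (7.6% of all genes), and in 4 every knockout lay below every control (10.8% of all genes). Their summed CPM ran from 647 to 1014 in controls and was 689, 459 and 432 in knockout libraries 1 to 3. The list itself holds matrix genes such as Dcn and Fbn1. Pdgfra, the receptor that defines fibroblasts and progenitors, stood at 12.6 ± 1.20 CPM in controls against 9.70 ± 0.92 CPM in knockouts, and Dpt at 33.9 ± 7.49 and 20.3 ± 7.53 CPM (SD, n = 3 per group). Pdgfra and Dpt made up a small part of the marker sum, which was carried by other members of the list. The fibrillar CPM sum divided by the fibroblast marker sum was 0.845 ± 0.0751 in controls against 0.864 ± 0.0764 in knockouts (SD, n = 3 per group), less than 1 SD apart.

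Endothelial markers lay on both sides of 0. All 10 were tested, 8 were positive and 2 negative (median 0.07), and none passed. Their summed CPM ran from 775 to 1001 in controls and from 828 to 1013 in knockouts, with Pecam1 at 120 ± 5.33 and 118 ± 10.1 CPM and Cdh5 at 176 ± 18.9 and 181 ± 24.3 CPM (SD, n = 3 per group). Col4a1 and Col4a2 together stood at 1.015, 1.03 and 0.994 times the endothelial sum in controls and at 0.911, 0.889 and 0.912 times in knockouts. These values did not overlap, unlike the chains' own CPM. This ratio, like the fibrillar one above, was not among the ratios given a permutation test, and its difference was not tested. With 3 against 3, such an exact permutation test cannot go below 0.1. Pericyte and smooth muscle markers were also near 0 (5 of 10 negative, median -0.07; summed CPM from 508 to 565 in controls and from 442 to 613 in knockouts). Rgs5, which marks pericytes, stood at 277 ± 7.31 and 324 ± 68.3 CPM (SD, n = 3 per group).

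**Figure D5:**
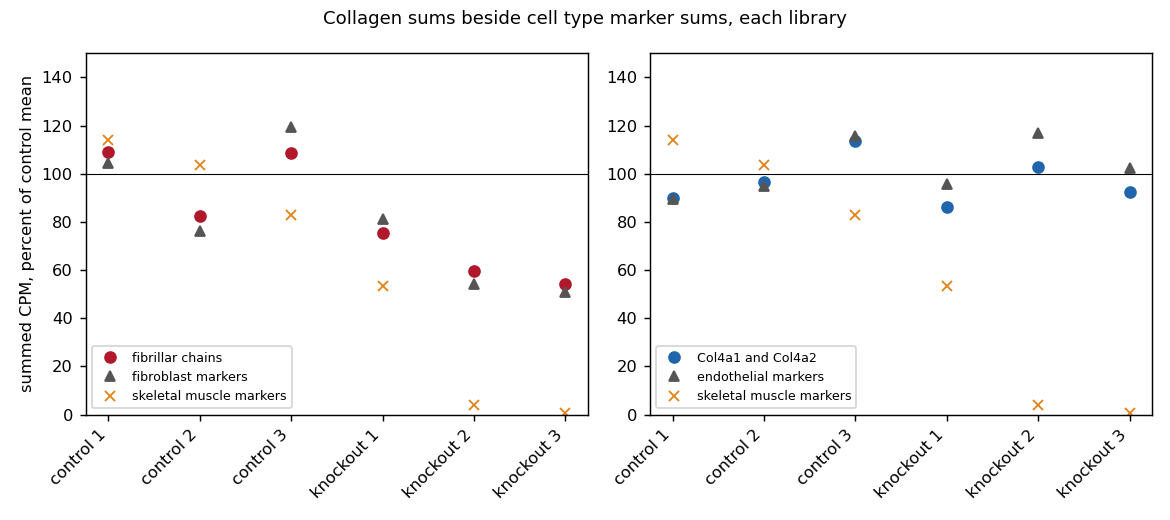
Summed CPM in each library as a percent of the control mean, for fibrillar chains beside fibroblast markers (left) and for Col4a1 with Col4a2 beside endothelial markers (right), with skeletal muscle markers in both panels. Fibrillar chains and fibroblast markers lie close together in every library, and the muscle markers run down to 141 CPM in knockout library 3, against 10309 CPM in knockout library 1.

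Among markers of other cells, none passed over all genes. At an unadjusted edgeR p under 0.05, 3 of the 20 skeletal muscle markers were lower and 0 higher (7.6% and 2.87% of all genes). In 16 of them every knockout lay below every control (10.8% of all genes). All 20 skeletal muscle markers were negative (median -2.13), and their sums are given above; Acta1 stood at 2790 ± 252 CPM in controls against 630 ± 1008 CPM in knockouts, and Ckm at 1213 ± 166 and 302 ± 489 CPM (SD, n = 3 per group). Tendon and cartilage markers, 4 of 9 tested, summed to 9.13, 6.47 and 18.7 CPM in controls and to 4.06, 2.15 and 1.603 CPM in knockouts; the tendon factor Scx stood at 1.66 ± 0.44 and 0.44 ± 0.50 CPM, and Kera was at 0 in all libraries. Macrophage markers (8 of 8 negative, median -0.37) summed to between 84.6 and 162 CPM in controls and between 66.3 and 151 CPM in knockouts. Schwann cell markers (5 of 6 tested negative, median -0.67) summed to between 49.2 and 86.0 CPM in controls and between 56.3 and 57.2 CPM in knockouts. The macrophage and Schwann cell sums both overlapped between the groups. Brown adipocyte markers were positive in 10 of 10 (median 0.28), with Ucp1 at 5752 ± 316 CPM in controls against 7288 ± 265 CPM in knockouts (SD, n = 3 per group). White adipocyte markers were negative in 6 of 7 tested (median -0.72). These fold changes do not tell which depot was sampled. Mesothelial markers were at most 3.35 CPM in sum, with Upk3b and Wt1 at 0. How far these cells account for the collagen values was not tested. With the mean log2 CPM of the muscle markers as a covariate the fibrillar median was -0.41, and Col1a1 was at -0.59 and Col5a2 at -0.77. With their share of counts as a covariate it was -0.15, and Col1a2 (0.29) and Col3a1 (0.01) turned positive without passing, while Col5a2 (-0.95), Col6a3 (-0.71) and Col18a1 (-1.43) stayed negative without passing.

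The enzymes that modify and fold collagen lay on both sides of 0. Of 18 genes 17 were tested, 10 were negative and 7 positive (median -0.09), and none passed over all genes. Serpinh1, the collagen-specific chaperone Hsp47, stood at 256 ± 20.6 CPM in controls against 281 ± 60.6 CPM in knockouts (SD, n = 3 per group). P4hb, the shared subunit of prolyl hydroxylase, stood at 68.8, 68.5 and 70.7 CPM in controls and at 67.7, 54.2 and 43.5 CPM in knockouts, with library 1 just under the controls (log2 fold change -0.33; edgeR adjusted p = 0.541). P3h2, a prolyl hydroxylase that acts on type IV chains, was at -0.93, Fkbp10 at -0.53 and Mia3, which helps to load procollagen for export, at -0.26.

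Genes that process, bind and degrade collagen were mostly negative, and none passed. In the processing and cross-linking list 8 of 10 tested genes were negative (median -0.32): Adamts2, which removes the N-terminal propeptide of fibrillar chains, was at -0.78, the lysyl oxidases Loxl4 and Loxl2 at -1.36 and -0.45, the enhancer Pcolce2 at -0.51, and Lox at -0.12. Of 8 tested collagen receptors 7 were negative (median -0.26), with the uptake receptor Mrc2 at -0.45, the integrin chain Itga11 at -0.92 and the receptor kinases Ddr2 and Ddr1 at -0.43 and -0.23. Of 6 tested degrading enzymes 5 were negative (median -0.40), led by Mmp2 (-0.78), Mmp14 (-0.72) and Ctsk (-0.67), while Mmp13 was at 0.90 with a standard error of 0.94.

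TGF-beta is the growth factor best known for raising collagen transcription, and its list of 11 genes had 9 negative members (median -0.14) and none that passed. Tgfb3 stood at 7.30, 8.88 and 9.99 CPM in controls and at 3.86, 2.67 and 3.44 CPM in knockouts (log2 fold change -1.39 ± 0.22, SE; edgeR adjusted p = 0.0919). Smad3, which carries the signal to the nucleus, stood at 24.5, 29.3 and 19.5 CPM in controls and at 11.03, 14.1 and 12.8 CPM in knockouts (-0.95 ± 0.18, SE; edgeR adjusted p = 0.139). Both had every knockout below every control. Ccn2, a target of the pathway, was at -0.59 and Tgfb2 at -1.45, and Tgfb1, the most studied of the ligands, stood at 15.95 ± 3.41 CPM in controls against 16.6 ± 3.13 CPM in knockouts (SD, n = 3 per group).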

How the data were processed

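RNA of 6 brown fat samples was sequenced after poly(A) selection (NEBNext Ultra II), per the labels' protocols. The values used are estimated counts as the authors deposited them, unnormalized, for 54385 genes in 6 libraries. Columns were matched to samples by the name in each description. StringTie, Salmon, edgeR and GRCm38 are named in the submitters' processing notes; versions, annotation release and strand setting do not appear there (not given in the sources used here). Depot and group size were read from the sample labels (interscapular, 3 samples a group), because the study-level design text instead calls the tissue inguinal and the replicates quadruplicate.

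Symbols, positions and transcript lengths came from GENCODE vM21 (GRCm38). Estimated counts were rounded. Genes passing filterByExpr (minimum count 10, minimum total 15) were tested with edgeR 4.0.16 in R 4.3.3 (quasi-likelihood F test, two-sided, genotype as the only term, TMM factors, Benjamini-Hochberg adjusted p under 0.05 over all genes tested). The common biological coefficient of variation was 25.2%. SE was the absolute log2 fold change over the square root of F. CPM used TMM-scaled library sizes (per 1000000). The fit was also run on simulated data, where recovery of changes was required only at the lower dispersion simulated. No outlying library was simulated, so that run does not show the power reached in these data. No 2 libraries within a genotype agreed to within sampling noise (chi-square over degrees of freedom from 12.1 to 69.6). The 95% intervals of fold changes come from the edgeR fit and cover the spread between libraries; floors of 3 counts cover counting error only. Chains with a mean of at least 5 CPM are given per library; of each pathway list, the tested members with the 4 smallest p, and of each marker list its sum and first 2 genes. Other genes named were chosen after their values were seen. The members and lists were chosen with earlier results of these data known. Protein features of the chains were planned and are not analysed here.

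The alternatives tried were DESeq2 1.42.0, limma-voom 3.58.1, RLE or upper-quartile scaling, other filters, a replicate block, each library left out, 2 muscle covariates and an adjusted p under 0.1.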

Additional observations from a re-analysis of the deposited data

How the results depend on the processing

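The count of chains called lower was 0 with edgeR on all 6 libraries and stayed at 0 under RLE and upper-quartile factors, limma-voom, the stricter 1 CPM filter, the replicate block, both muscle covariates and an adjusted p under 0.1. It was 7 with DESeq2 and 10 with no low-count filter, and from 0 to 9 over the fits that each leave out 1 library, where only the fit without knockout library 1 gave any. No alternative called a chain higher. Leaving out 1 library each moved the median log2 fold change of all tested chains between -0.69 and -0.44, the fibrillar median between -0.96 and -0.70, the type VI median between -0.90 and -0.68 and the type IV median between -0.52 and -0.14. With no low-count filter the median was -0.69, but over 43 chains in place of 30, and Col1a1 itself was at -0.97. Adding the score of the muscle markers to the fit, the medians were -0.41 (fibrillar), -0.21 (type IV) and -0.60 (type VI), and Col4a3 (0.14), Col5a3 (0.17), Col7a1 (0.18), Col13a1 (-0.34), Col27a1 (-0.26) and Col28a1 (0.0024) changed sign without passing. Adding their share of counts instead, the medians were -0.32 (all chains), -0.15 (fibrillar), -0.57 (type IV) and -0.14 (type VI), and Col1a2 (0.29), Col3a1 (0.012), Col5a3 (0.036), Col6a4 (0.42), Col7a1 (0.82), Col13a1 (-0.80), Col27a1 (-0.66) and Col28a1 (0.065) changed sign without passing. The causes of these moves were not tested. Col27a1 ran from -0.038 to 0.32 over the fits without 1 library. Over the same removals the log2 difference of Col1a2 over Col1a1 ran from -0.071 to 0.13, of Col5a2 over Col5a1 from -0.018 to 0.29, and of Col4a2 over Col4a1 from -0.042 to 0.0073; the other 4 ratios kept their sign, Col4a1 over Col1a1 between 0.78 and 1.16.

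Same-numbered control and knockout libraries had correlations of deviations of 0.09, 0.11 and 0.08, against -0.07 to -0.01 for the other pairs. Each sample thus correlated best with its own number. Deviations were taken from the mean of each genotype, so positive values for some pairs push the other pairs below 0. The match of numbers was not tested and is only a hint, since the labels tie the numbers to nothing shared. With the number as a replicate block edgeR called 2 genes higher and 2 lower in place of 4 and 5, and 0 collagen chains, with a median over all chains of -0.52. Chains with fewer than about 100 counts in a group, such as the minor type IV chains, carry standard errors from 0.31 to 0.43 for Col4a3, Col4a4 and Col4a5, so that modest differences could not be detected there.

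Over all genes tested, calls (lower and higher) were 5 and 4 with edgeR on all libraries, 276 and 31 with DESeq2, 782 and 111 with no low-count filter, 27 and 6 with limma-voom, 812 and 45 without knockout library 1, and 39 and 7 at an adjusted p under 0.1.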
